A study of Mus musculus with 14 samples.

Results

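The semaphorin, ephrin, Slit, netrin and FLRT ligands and their plexin, neuropilin, Eph, Robo and Unc5 receptors were followed in mouse epidermis that lacked the histone methyltransferase G9a. Every gene whose symbol belongs to these families and that had a probe set with a single symbol was taken, which gave 73 of the 17097 genes measured, on 142 probe sets. They were 20 semaphorins, 10 genes named as plexins, 2 neuropilins, 7 ephrins, 13 Eph receptors, 2 Slits, 4 Robo receptors, 6 netrins, 6 genes named Unc5 and 3 FLRT genes. Among these, 3 match by name without being guidance receptors: Unc50, Unc5cl and the antisense RNA Plxna4os1, none of which passed a test below. The arrays came from skin in homeostasis of mice aged 15 weeks. The bulge, the part of the hair follicle that houses its stem cells, was represented by 4 arrays from G9a conditional knockout (cKO) mice and 3 from G9a wild-type (WT) mice. The interfollicular epidermis (IFE), the surface epithelium between follicles, was represented by 4 G9a cKO arrays and 3 G9a WT arrays. The sources used here give neither the Cre driver nor the way the cells were separated, and do not say whether replicates were separate animals, so p-values measure the spread between these samples, which may be technical. In such bulk samples, fewer cells of a type and less RNA per cell cannot be told apart.

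Axon guidance molecules are cell surface or secreted cues that attract or repel growing axons, and most epithelia use them as well to set cell contact, position and migration. Semaphorins signal through plexins, the secreted class 3 members mostly with a neuropilin as co-receptor, while ephrins and Eph receptor tyrosine kinases are both tethered to membranes and signal between touching cells. Slits bind Robo receptors, netrins bind Unc5 receptors and DCC, and FLRT proteins are transmembrane adhesion molecules that bind Unc5 receptors and latrophilins. In epidermis, Eph receptors and ephrins are known for roles in keratinocyte adhesion and differentiation. G9a places methyl groups on lysine 9 of histone H3, a mark of silenced chromatin.

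Promoter windows are shown for some of the genes on which the results turn: Flrt3, Efna5 and Sema3c, which were lower without G9a in the bulge, and Sema3e, which had the largest difference between bulge and IFE among the members. Windows of Flrt2, Ephb4 and Efna2, also lower in the bulge, and of Plxnb3, which was higher, are not shown. Each window shown is the 250 bases before the annotated gene start, read 5′ to 3′ on the gene's strand, from RefSeq on GRCm38.p6. Capitals mark the GC box, GGGCGG, or its reverse complement CCGCCC.
Flrt3, chr2:140671477-140671726, minus strand: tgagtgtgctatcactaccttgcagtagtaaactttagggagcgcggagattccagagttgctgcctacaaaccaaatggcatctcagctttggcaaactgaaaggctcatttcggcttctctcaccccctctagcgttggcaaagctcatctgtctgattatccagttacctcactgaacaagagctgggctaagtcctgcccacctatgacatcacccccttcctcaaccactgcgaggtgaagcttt
Efna5, chr17:62881318-62881567, minus strand: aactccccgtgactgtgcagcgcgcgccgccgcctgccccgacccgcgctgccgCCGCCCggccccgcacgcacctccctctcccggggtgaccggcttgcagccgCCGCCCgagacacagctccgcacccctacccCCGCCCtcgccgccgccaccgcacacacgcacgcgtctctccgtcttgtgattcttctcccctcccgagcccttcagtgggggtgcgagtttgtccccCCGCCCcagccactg
Sema3c, chr5:17574566-17574815, plus strand: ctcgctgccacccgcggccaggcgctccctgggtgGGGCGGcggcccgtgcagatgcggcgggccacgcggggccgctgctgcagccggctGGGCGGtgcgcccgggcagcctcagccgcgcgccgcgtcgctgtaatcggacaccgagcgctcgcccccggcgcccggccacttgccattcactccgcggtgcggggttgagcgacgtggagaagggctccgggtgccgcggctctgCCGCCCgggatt
Sema3e, chr5:14025026-14025275, plus strand: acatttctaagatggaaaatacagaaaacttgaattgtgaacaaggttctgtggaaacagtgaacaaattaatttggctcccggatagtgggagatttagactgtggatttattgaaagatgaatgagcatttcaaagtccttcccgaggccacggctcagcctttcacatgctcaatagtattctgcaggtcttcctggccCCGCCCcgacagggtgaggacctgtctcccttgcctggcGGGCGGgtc

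The Efna5 window held 4 GC boxes and 32 CpG dinucleotides, and the Sema3c window held 3 GC boxes and 39 CpG dinucleotides. The Sema3e window held 2 GC boxes with 7 CpG dinucleotides, and the Flrt3 window held 5 CpG dinucleotides and no match to that motif. RefSeq windows matched 62 of the 73 genes and gave 77 windows, of which 68.8% held a GC box on either strand, against 42.6% of 21263 protein-coding windows and 32.7% of all 32851 windows. The median number of CpG dinucleotides was 14 in windows of guidance genes, 10 in protein-coding windows and 6 in all windows. The TATA box was also searched on both strands as TATAAA, the AP-1 site as TGANTCA, the TCF/LEF site as CTTTGAT, the LIM homeobox site as TAATTA and the SOX site as ACAATG, none of which is contained in another. They were in 2.6%, 3.9%, 1.3%, 3.9% and 9.09% of the guidance windows, in that order, against 11.6%, 6.13%, 2.82%, 4.31% and 9.35% of protein-coding windows. None of these letters occurs in the 4 windows printed. A match describes the sequence and is not a measured binding site.

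Values are log2 signals, and the array medians lay between 5.76 and 5.84. For Ehmt2, the gene for G9a, 1 probe set read 5.85 to 6.02 in bulge cKO and 9.51 to 9.69 in bulge WT, and 5.95 to 6.09 in IFE cKO against 9.59 to 9.78 in IFE WT, while the other read 7.84 to 8.05 on all arrays. The sources used here do not place either probe set against the deleted exons. The mean of 14 bulge stem cell markers was 8.89 to 9.94 in bulge cKO and 9.97 to 10.14 in bulge WT, and 6.79 to 7.40 in IFE cKO against 6.81 to 6.87 in IFE WT, so that the list separated bulge from IFE. The mean of 6 basal and interfollicular keratinocyte markers did not separate them, at 11.59 to 11.70 in bulge cKO and 11.61 to 11.71 in IFE cKO, and 11.69 to 11.81 in bulge WT and 11.72 to 11.81 in IFE WT. Bulge cKO replicates 2 and 3 stood apart, with bulge marker means of 8.89 and 9.07 against 9.71 and 9.94 on replicates 1 and 4. Their mean over 12 epidermal differentiation markers was 9.18 and 8.95, where bulge cKO replicates 1 and 4 had 7.58 and 8.46 and bulge WT arrays had 7.10 to 7.55. IFE cKO replicates 2 and 3 had the higher bulge marker means in their group, 7.36 and 7.40. Markers of Langerhans cells (6.84 to 7.48 in bulge cKO, 6.33 to 6.56 in bulge WT) and T cells (5.94 to 6.96 in bulge cKO, 5.72 to 5.96 in bulge WT) also read higher in bulge cKO, and sebaceous markers read 6.93 to 7.41 in bulge cKO and 6.80 to 6.92 in bulge WT. Of other cell types, the Schwann cell list had means of 6.55 to 6.76 in bulge cKO and 6.57 to 6.65 in bulge WT, and the melanocyte, endothelial, fibroblast, Merkel and muscle cell lists lay between 4.78 and 5.87 on every array. Within that range, fibroblast markers were highest on replicates 2 and 3 of each cKO group. They read 5.66 and 5.38 there in bulge cKO, against 4.92 to 5.09 in bulge WT. In IFE cKO those replicates read 5.34 and 5.32, against 4.78 to 5.05 in IFE WT. A set of 22 genes of other organs, expected to have little transcript here, had means over the arrays of 3.62 to 6.83. Of the 73 guidance genes, 36 had a highest group mean above 6.83, and the other genes read within the range of that set.

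In bulge cells without G9a, 6 guidance genes were lower and 1 was higher than in WT. The 6 that fell were the FLRT adhesion genes Flrt2 and Flrt3, the ephrins Efna5 and Efna2, the secreted semaphorin Sema3c and the receptor Ephb4, and the plexin Plxnb3 rose. These 7 of 73 genes (9.59%) passed limma's test at an adjusted p under 0.05, where 3.84% of all 17097 genes did, 1.98% higher and 1.85% lower. Whether these shares differ was not tested. The median log2 difference over the 73 genes was 0.05 and that over all genes 0.01. By role, 5 of 38 ligands fell. Of 35 genes in receptor families, Unc50, Unc5cl and Plxna4os1 included, 1 fell and 1 rose. The cKO and WT arrays did not overlap for 15 of the 73 genes, as for 18.5% of all genes.

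**Figure D1:**
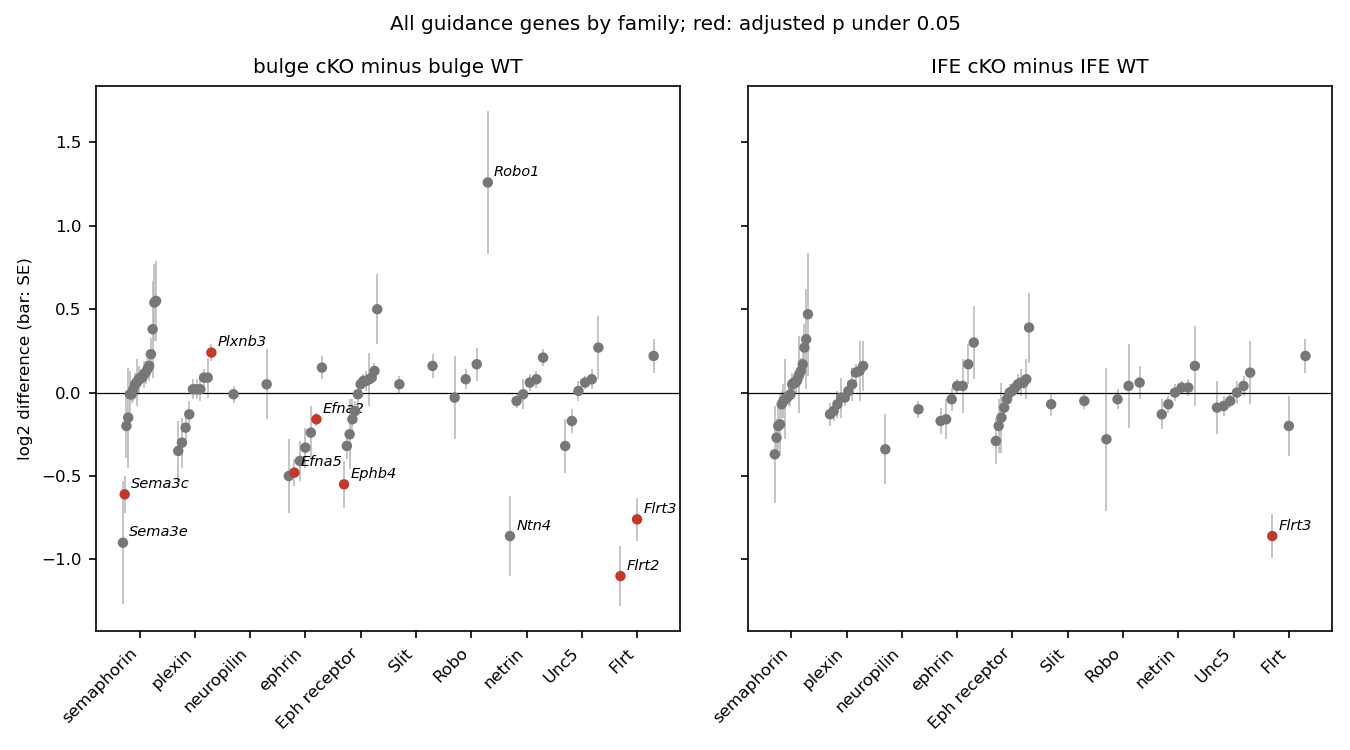
Log2 difference of cKO minus WT for each of the 73 guidance genes in bulge (left panel) and IFE (right panel), by family along the x axis, with bars for the SE and red points for an adjusted p under 0.05. Most genes lie near 0, with Flrt2, Flrt3, Sema3c, Efna5 and Ephb4 called below -0.4 in bulge and Flrt3 called in IFE.

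Flrt3, a transmembrane adhesion protein of the leucine-rich repeat type, was lower without G9a in both compartments. Its log2 signals were 8.90, 8.38, 8.37 and 8.73 in bulge cKO, against 9.30, 9.31 and 9.45 in bulge WT, and 8.47, 8.30, 8.41 and 8.35 in IFE cKO, against 9.15, 9.05 and 9.51 in IFE WT. All 8 cKO arrays lay below all 6 WT arrays. The log2 difference was -0.76 (SE 0.13, limma adjusted p = 0.012) in bulge, a 1.69-fold lower signal, and -0.86 (SE 0.13, limma adjusted p = 0.0129) in IFE, a 1.81-fold lower signal. In IFE the T cell markers (6.67 to 7.08 in IFE cKO, 6.30 to 6.56 in IFE WT) and sebaceous markers (7.09 to 7.36 in IFE cKO, 6.82 to 7.05 in IFE WT) also did not overlap between the genotypes. The basal and interfollicular keratinocyte markers did not overlap either and were lower in cKO (11.61 to 11.71 in IFE cKO, 11.72 to 11.81 in IFE WT). The part of these lists in the Flrt3 value was not tested. The difference between the bulge and IFE effects on Flrt3 was 0.10, with an interval of 2 SE from -0.28 to 0.47. The other Flrt3 probe set gave -1.06 for bulge, with an adjusted p of 0.0197, and -0.89 for IFE, with an adjusted p of 0.108. Between bulge and IFE in WT, Flrt3 differed by 0.12 (SE 0.14, adjusted p = 0.58), which did not pass.

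Flrt2, the close relative of Flrt3, fell in bulge cells by more than any other guidance gene. It read 7.91, 8.16, 8.04 and 8.35 in bulge cKO, against 9.30, 9.32 and 9.01 in bulge WT. The IFE arrays read 8.19, 8.04, 8.00 and 7.64 in cKO, against 7.93, 7.93 and 8.64 in WT. Bulge WT thus stood above every array of the other 3 groups, and bulge cKO lay within the range of the IFE arrays. The bulge log2 difference was -1.10 (SE 0.18, limma adjusted p = 0.00861), a 2.14-fold lower signal, and the IFE one was -0.20 (SE 0.18, adjusted p = 0.779). All 3 Flrt2 probe sets fell in bulge, at log2 differences of -1.10, -1.30 and -1.29, with an adjusted p between 0.00829 and 0.0102. The test of the difference between the compartments gave -0.90 (SE 0.25, adjusted p = 0.206), which did not pass. Flrt1, the third FLRT gene, read 5.83 to 6.22 in bulge cKO and 5.75 to 5.95 in bulge WT, within the range of genes of other organs.

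Of the ephrins, Efna5 and Efna2 fell in bulge cKO. Efna5, a GPI-anchored ligand of EphA receptors, read 9.47, 9.42, 9.46 and 9.61 in bulge cKO, against 10.09, 10.05 and 9.78 in bulge WT. The groups did not overlap, and the log2 difference was -0.48 (SE 0.08, limma adjusted p = 0.00814). In IFE it read 9.04 to 9.18 in cKO and 9.22 to 9.40 in WT, again without overlap, at a log2 difference of -0.17 that did not pass (adjusted p = 0.447). The other Efna5 probe set fell by 0.40 in bulge (adjusted p = 0.0318). Efna2, another GPI-anchored ephrin, read 7, 7.05, 6.95 and 6.96 in bulge cKO, against 7.16, 7.17 and 7.12 in bulge WT. Its fall was small, at -0.16 (SE 0.04, limma adjusted p = 0.0482), and its other probe set differed by -0.09 (adjusted p = 0.393). Efnb1 (-0.41, adjusted p = 0.0652), Efna1 (-0.33, adjusted p = 0.111), Efna4 (-0.50, adjusted p = 0.179) and Efnb2 (-0.24, adjusted p = 0.34) had negative differences that did not pass, and Efnb3 had a positive one (0.15, adjusted p = 0.198) with no overlap of the groups. The median over the 7 ephrins was -0.33 in bulge and 0.04 in IFE, where no ephrin passed limma's test and 1 had an unadjusted p under 0.05.

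Sema3c, a secreted class 3 semaphorin known for guiding neural crest cells and neurites through neuropilins and plexins, read 9.27, 9.67, 9.61 and 9.78 in bulge cKO, against 10.29, 10.21 and 10.06 in bulge WT. Bulge cKO was below every array of the other groups, since IFE cKO read 10.02 to 10.32 and IFE WT 10.43 to 10.46. The bulge log2 difference was -0.61 (SE 0.11, limma adjusted p = 0.0164), a 1.52-fold lower signal, and the IFE one was -0.27 (SE 0.11, adjusted p = 0.407). A further Sema3c probe set differed by -0.42 in bulge, with an adjusted p = 0.0516. Sema3e is a class 3 semaphorin that binds plexin D1 without a neuropilin. It read 9.80, 8.32, 8.74 and 10.05 in bulge cKO, against 10.26, 10.07 and 10.05 in bulge WT, and its difference of -0.90 (SE 0.37, adjusted p = 0.153) did not pass. The low Sema3e arrays were bulge cKO replicates 2 and 3, the arrays with the lower bulge marker means, and the part of this in the difference was not tested.

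Among receptors, Ephb4, a receptor tyrosine kinase for ephrin-B2, read 8.55, 8.18, 8.49 and 8.79 in bulge cKO, against 9.22, 9.18 and 8.75 in bulge WT. The groups overlapped on bulge cKO replicate 4 and bulge WT replicate 3, and the log2 difference was -0.55 (SE 0.14, limma adjusted p = 0.0462). In IFE the difference was -0.29 (SE 0.14, adjusted p = 0.467). Plxnb3, a receptor of the semaphorin Sema5a, read 5.55, 5.71, 5.76 and 5.58 in bulge cKO, against 5.41, 5.38 and 5.43 in bulge WT. Its rise was 0.24 (SE 0.05, limma adjusted p = 0.0259), at signals below the array medians and within the range of genes of other organs. The mean of those 22 genes was 5.16, 5.24, 5.19 and 5.09 in bulge cKO, against 5.09, 5.08 and 5.12 in bulge WT, and its part in the Plxnb3 value was not tested. Robo1, a receptor for Slits, had the largest positive difference, 1.26, but its bulge cKO arrays were spread from 5.59 to 7.57 and it did not pass (SE 0.43, adjusted p = 0.105). Ntn4, a netrin of basement membranes, read 6.07, 5.68, 6.05 and 6.69 in bulge cKO, against 7.42, 7.09 and 6.44 in bulge WT, and its difference of -0.86 (SE 0.24, adjusted p = 0.0626) did not pass either.

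**Figure D2:**
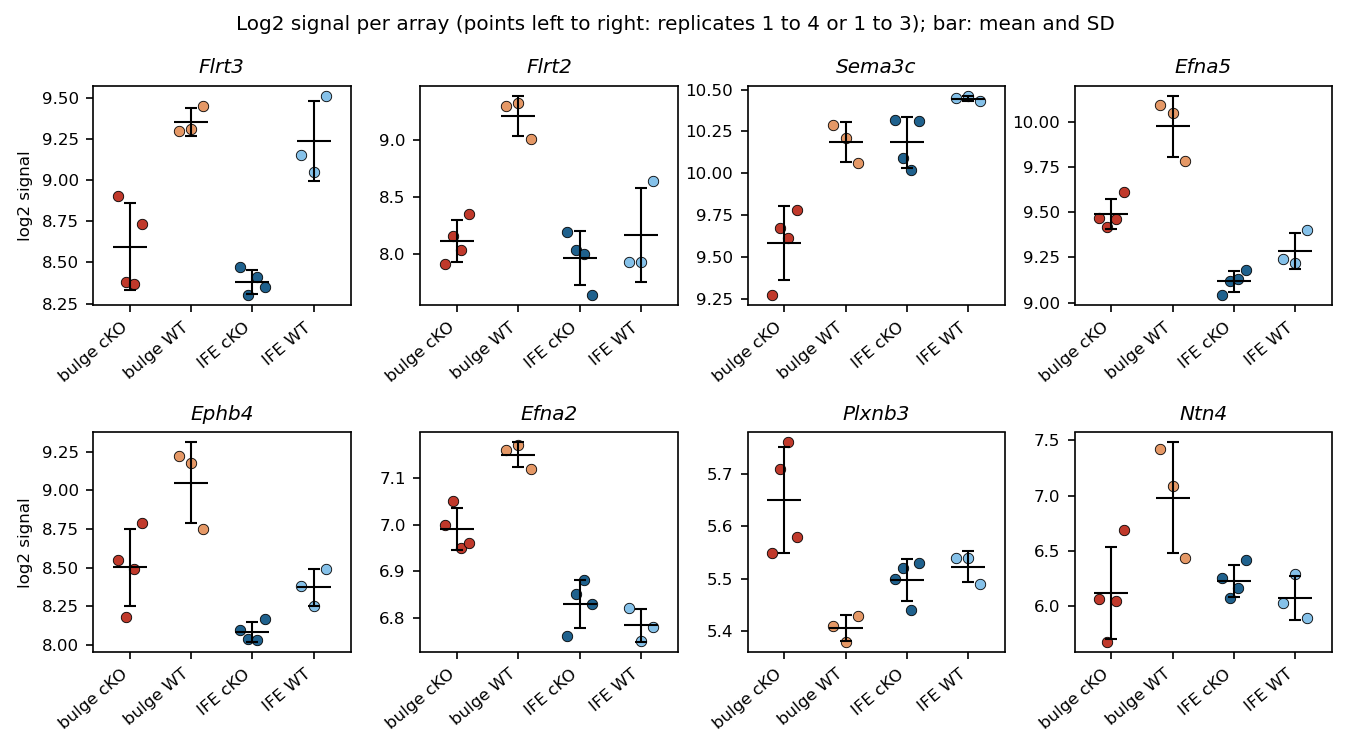
Log2 signal (y axis) on each array for the 7 genes called between bulge cKO and bulge WT and for Ntn4, which was not called, with the 4 groups along the x axis and bars for the mean and SD. For Flrt3 both cKO groups lie below both WT groups, for Flrt2 the bulge WT arrays lie above all others, and for Sema3c the bulge cKO arrays lie below all others.

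The bulge calls depended on few arrays and, for some genes, on the setting. Of 17 alternatives, Efna2 lost its call in 14 and Ephb4 in 9, and of 16 Plxnb3 lost its call in 7. Among those that leave out no array, cyclic loess gave an adjusted p of 0.152 for Efna2 and 0.0556 for Ephb4. Without bulge WT replicate 1 or replicate 2, 0 of the 73 genes passed limma's test while 15 and 14 had an unadjusted p under 0.05, and adjusted p-values lay just past the threshold for Flrt2 (0.0529 and 0.0513), Flrt3 (0.0522 and 0.051) and Efna5 (0.0521 and 0.051). Of all genes, 0.678% and 0.784% passed in these fits. The count was 4 without bulge cKO replicate 2 or without replicate 3, when 1.24% and 1.08% of all genes passed. It was 18 without bulge cKO replicate 4, of which 13 were lower and 5 higher, when 14.9% of all genes passed. Without cKO replicates 2 and 3 of both compartments, 0 passed, where 0.468% of all genes did, and 11 had an unadjusted p under 0.05, with log2 differences of -1.08 for Flrt2, -0.54 for Flrt3, -0.66 for Sema3c, -0.43 for Efna5, -0.38 for Ephb4, -0.17 for Efna2 and 0.16 for Plxnb3.

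In IFE, Flrt3 was the gene that changed between cKO and WT, 1 of 73 (1.37%), where 0.497% of all genes passed. Its call was lost without IFE WT replicate 1 (log2 difference -0.90, adjusted p = 0.0503). The remaining differences lay between -0.37 (Sema4d, adjusted p = 0.714) and 0.47 (Sema3e, adjusted p = 0.718). The groups did not overlap for 9 genes, as for 11% of all genes. Sema3e read 5.06, 5.85, 5.94 and 5.07 in IFE cKO, against 4.91, 5.07 and 5.03 in IFE WT, with IFE cKO replicates 2 and 3 the high ones. Sema4g showed the same arrays high, at 5.65, 7.13, 6.93 and 6.12 in IFE cKO, against 6.26, 6.13 and 6.02 in IFE WT.

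Whether loss of G9a acted differently in the compartments was tested by the difference of the bulge and IFE effects. None of the 73 genes passed limma's test, where 0.105% of all genes did, and 13 had an unadjusted p under 0.05, as 14.1% of all genes did. The widest values were 1.54 for Robo1 (SE 0.62, adjusted p = 0.303), -1.38 for Sema3e (SE 0.52, adjusted p = 0.286) and -1.02 for Ntn4 (SE 0.34, adjusted p = 0.238). The lowest adjusted p was that of Plxnb3 (0.27, SE 0.07, adjusted p = 0.188). These intervals are wide, that of Sema3e running from -2.41 to -0.34 at 2 SE.

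In both genotypes, a share of the guidance genes close to that of all genes differed in signal between bulge and IFE. In cKO skin 28 of 73 genes (38.4%) differed between bulge and IFE, 18 higher and 10 lower in bulge, where 32.1% of all genes differed (17.6% higher, 14.6% lower). In WT skin 28 of 73 (38.4%) differed as well, 18 higher and 10 lower, where 35.1% of all genes differed (18.4% higher, 16.6% lower). Shares of guidance genes were thus close to the background in both genotypes. With each array centred on its median the split was 12 higher and 12 lower in cKO, where 12% of all genes were higher and 18.2% lower, and 17 higher and 16 lower in WT, where 16% were higher and 21.6% lower. Without cKO replicates 2 and 3 of both compartments, 23 genes differed in cKO, 13 higher and 10 lower in bulge, where 12.4% of all genes were higher and 12.1% lower. Of the genes called, 7 in cKO (6 higher, 1 lower) and 3 in WT (2 higher, 1 lower) read within the range of genes of other organs. Among those 22 genes of other organs themselves, 5 were called higher and 0 lower in bulge in cKO, and 0 higher and 1 lower in WT. A set of 21 genes was called in both genotypes, all in the same direction, 7 passed in cKO and not in WT, and 7 in WT and not in cKO. Over all comparisons 36 of the 73 genes passed at least once and 37 in none. The groups did not overlap for 29 genes in cKO, as for 33% of all genes, and for 38 genes in WT, as for 47.4% of all genes. The bulge WT arrays also served in the cKO comparison above, so that values of one comparison are not independent of the other. T cell markers read lower in bulge WT (5.72 to 5.96) than in IFE WT (6.30 to 6.56). Langerhans cell markers did as well (6.33 to 6.56 in bulge WT, 6.65 to 7.09 in IFE WT). For both lists, bulge cKO and IFE cKO overlapped. The part of these lists in the differences between bulge and IFE was not tested.

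Sema3e had the largest difference toward bulge. It read 8.32 to 10.05 in bulge cKO and 5.06 to 5.94 in IFE cKO, and 10.05 to 10.26 in bulge WT and 4.91 to 5.07 in IFE WT. The log2 difference was 3.75 (SE 0.34, limma adjusted p = 4.27e-05) in cKO and 5.13 (SE 0.39, adjusted p = 5.86e-06) in WT. The IFE arrays read within the range of genes of other organs, so no fold of transcript is given. The 4 Sema3e probe sets gave differences of 2.68 to 5.13 in WT. Sema4g, a transmembrane class 4 semaphorin, followed at 1.59 in cKO (SE 0.28, adjusted p = 0.00149) and 2.06 in WT (SE 0.32, adjusted p = 0.000427).

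Several semaphorins ran the other way and were lower in bulge. Sema4d, a transmembrane ligand of plexin B1 and plexin B2, read 5.87, 6.77, 6.90 and 5.96 in bulge cKO, against 8.33, 7.49, 7.67 and 8.07 in IFE cKO. In WT it read 6.02, 5.97 and 6.01 in bulge, against 8.04, 7.99 and 8.76 in IFE. The groups did not overlap in either genotype, at log2 differences of -1.52 (SE 0.26, limma adjusted p = 0.00137) in cKO and -2.26 (SE 0.30, adjusted p = 0.000147) in WT. The secreted class 3 genes Sema3d (-1.25 in cKO, -1.83 in WT) and Sema3f (-1.04 in cKO, -1.47 in WT) were lower in bulge as well, with an adjusted p between 0.000204 and 0.00315. Sema4b (-0.61 in cKO, -0.80 in WT) and Sema4c (-0.29 in cKO, -0.28 in WT) were lower by less. Sema4c read 4.33 to 5.07 over all arrays, within the range of genes of other organs. The Sema4c call in WT was lost when replicate 1 or 3 of bulge WT, or 1 or 2 of IFE WT, was left out, with an adjusted p of 0.0767 to 0.13. Over the 20 semaphorins, 6 were higher and 6 lower in bulge in cKO, where 17.6% and 14.6% of all genes were. In WT 3 semaphorins were higher and 5 lower, where 18.4% and 16.6% of all genes were. Of the 6 called higher in cKO, Sema3a (0.16), Sema3g (0.24) and Sema5b (0.17) read within the range of genes of other organs, and each lost its call without cKO replicates 2 and 3 (adjusted p = 0.179, 0.607 and 0.196). With arrays centred on their medians, Sema3g (adjusted p = 0.0664) and Sema5b (adjusted p = 0.0599) did not pass either. Sema3c was lower in bulge in cKO (-0.60, SE 0.10, adjusted p = 0.00137) and did not pass in WT (-0.26, SE 0.12, adjusted p = 0.118), where its other probe set did (-0.41, adjusted p = 0.0132). Sema6a was higher in bulge by 0.54 in cKO (SE 0.09, adjusted p = 0.00136) and had 0.26 in WT (SE 0.11, adjusted p = 0.0843), where a further probe set passed at 0.22 (adjusted p = 0.041).

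The plexins, receptors of semaphorins, were also divided. Plxna2 read 8.01, 8.13, 8.11 and 8.60 in bulge cKO, against 7.45, 7.32, 7.48 and 7.15 in IFE cKO, and 8.53, 8.75 and 8.24 in bulge WT, against 7.08, 7.17 and 7.32 in IFE WT. It was higher in bulge by 0.86 in cKO (SE 0.14, limma adjusted p = 0.000839) and 1.31 in WT (SE 0.16, adjusted p = 6.93e-05), and its 4 probe sets gave 1.08 to 1.74 in WT. Plxnb1, a Sema4d receptor, was higher in bulge by 0.49 in cKO (SE 0.17, adjusted p = 0.0415) and 0.97 in WT (SE 0.19, adjusted p = 0.00202). The Plxnb1 call in cKO was lost without bulge cKO replicate 1, 3 or 4 or IFE cKO replicate 1, 2 or 3, with 0.39 to 0.54 and an adjusted p up to 0.11. Plxnb2, also a Sema4d receptor, was lower in bulge, at -0.58 in cKO (SE 0.11, adjusted p = 0.00221) and -0.70 in WT (SE 0.13, adjusted p = 0.00102). Sema4d and Plxnb2 were both lower in bulge while Plxnb1 was higher there. Plxnd1, the receptor of Sema3e, read 4.96 to 5.13 in bulge cKO and 5.01 to 5.19 in IFE cKO, and 5.03 to 5.05 in bulge WT and 5.10 to 5.36 in IFE WT, in the range of genes of other organs. The neuropilins did not pass in any comparison, and Nrp1 read 4.90 to 5.16 over the 14 arrays, also in that range.

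Most ephrins were higher in bulge than in IFE. In cKO 6 of 7 were called, all higher in bulge (median log2 difference 0.38, against 0.03 for all genes), and in WT 6 of 7, all higher (median 0.74, against -0.01 for all genes). Of all genes, 17.6% were called higher in bulge in cKO and 18.4% in WT. Whether the ephrin shares differ from these was not tested. Efna4 read 7.88, 7.34, 7.71 and 8.41 in bulge cKO, against 6.36, 6.95, 6.71 and 6.52 in IFE cKO, and 8.56, 8.34 and 8.12 in bulge WT, against 6.49, 6.45 and 6.05 in IFE WT. Its log2 difference was 1.20 (SE 0.20, limma adjusted p = 0.0012) in cKO and 2.01 (SE 0.24, adjusted p = 6.21e-05) in WT. The transmembrane ephrins Efnb2 (0.90 in cKO, 1.19 in WT) and Efnb1 (0.58 in cKO, 0.83 in WT) were higher in bulge with no overlap of the groups. Efna5 (0.38 in cKO, 0.69 in WT) and Efna2 (0.16 in cKO, 0.36 in WT) were higher too. Efna1 was higher by 0.74 in WT (SE 0.12, adjusted p = 0.00066) and had 0.23 in cKO (SE 0.11, adjusted p = 0.116). Efnb3 was called in cKO at 0.26 (SE 0.06, adjusted p = 0.00802), at signals of 5.17 to 5.61 over all arrays, within the range of genes of other organs. Its call was lost without cKO replicates 2 and 3 (0.20, adjusted p = 0.169).

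Eph receptors, which bind these ephrins, ran both ways. Ephb6, which lacks kinase activity, was higher in bulge by 0.57 in cKO (SE 0.19, limma adjusted p = 0.0408) and 1.21 in WT (SE 0.22, adjusted p = 0.00123). Ephb4 (0.42 in cKO, 0.68 in WT) was higher as well. Ephb1 was called too (0.48 in cKO, 0.73 in WT), at 5.23 to 5.83 in bulge cKO, 4.79 to 5.05 in IFE cKO, 5.52 to 5.72 in bulge WT and 4.78 to 4.99 in IFE WT, all within the range of genes of other organs, so no fold is given. The Ephb6 call in cKO was lost without any single bulge cKO array or IFE cKO replicate 1 or 4, and the Ephb4 call without bulge cKO replicate 1 or 4 or IFE cKO replicate 2 or 3, with an adjusted p up to 0.0965 and 0.0613. Epha2, a receptor of ephrin-A1 known in keratinocyte differentiation, was lower in bulge. It read 7.83, 8.02, 8.00 and 7.53 in bulge cKO, against 9.41, 8.64, 8.83 and 9.07 in IFE cKO, and 7.03, 7.29 and 7.70 in bulge WT, against 8.96, 8.99 and 9.47 in IFE WT. The difference was -1.15 (SE 0.19, adjusted p = 0.0011) in cKO and -1.80 (SE 0.22, adjusted p = 8.17e-05) in WT. Epha4 was lower in bulge, at -0.53 in cKO (SE 0.15, adjusted p = 0.0181) and -0.81 in WT (SE 0.17, adjusted p = 0.00327), and its 3 probe sets gave -0.81 to -1.30 in WT. The Epha4 call in cKO was lost without bulge cKO replicate 1 or IFE cKO replicate 1 (adjusted p = 0.0543 and 0.0526). Of the 13 Eph receptors, 3 were higher and 2 lower in bulge in cKO, where 17.6% and 14.6% of all genes were. In WT 4 Eph receptors were higher and 2 lower, where 18.4% and 16.6% of all genes were.

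Robo1 had the largest difference toward IFE. It read 5.59, 7.57, 7.52 and 6.22 in bulge cKO, against 9.72, 8.77, 8.65 and 9.22 in IFE cKO, and 5.39, 5.36 and 5.65 in bulge WT, against 9.41, 9 and 9.71 in IFE WT. The log2 difference was -2.37 (SE 0.40, limma adjusted p = 0.00122) in cKO and -3.91 (SE 0.47, adjusted p = 6.69e-05) in WT, with bulge WT below the array medians. Its ligands Slit1 (6.90 to 7.25) and Slit2 (5.01 to 5.17) differed little between arrays and passed in no comparison. Robo2, Robo3 and Robo4 stayed at or under 5.31 on every array. In the netrin family, Ntn4 was higher in bulge in WT by 0.91 (SE 0.26, adjusted p = 0.015) and had -0.11 in cKO (SE 0.22, adjusted p = 0.732). The Ntn4 call in WT was lost when bulge WT replicate 1 was left out (0.69, adjusted p = 0.0721) or IFE WT replicate 3 (0.82, adjusted p = 0.0532). Unc5b, a netrin receptor, was lower in bulge in WT, at -0.61 (SE 0.20, adjusted p = 0.0311) and had -0.46 in cKO (SE 0.17, adjusted p = 0.0609), and Unc5c was higher in WT by 0.21 (SE 0.07, adjusted p = 0.045). Both calls were lost without single arrays. That of Unc5b was lost when replicate 2 or 3 of bulge WT, or 1 or 3 of IFE WT, was left out, at an adjusted p up to 0.118, and that of Unc5c without replicate 2 or 3 of bulge WT or without any IFE WT array, at an adjusted p up to 0.161. Unc5c read 5.27 to 5.67 over all arrays, within the range of genes of other organs. The other Unc5b probe set passed in cKO (-0.37, limma adjusted p = 0.00835) and not in WT (-0.26, adjusted p = 0.0631). Its means of 5.16 in bulge cKO and 5.52 in IFE cKO were also within that range. Flrt2 was higher in bulge by 1.04 in WT (SE 0.19, adjusted p = 0.00117) and had 0.14 in cKO (SE 0.17, adjusted p = 0.544).

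**Figure D3:**
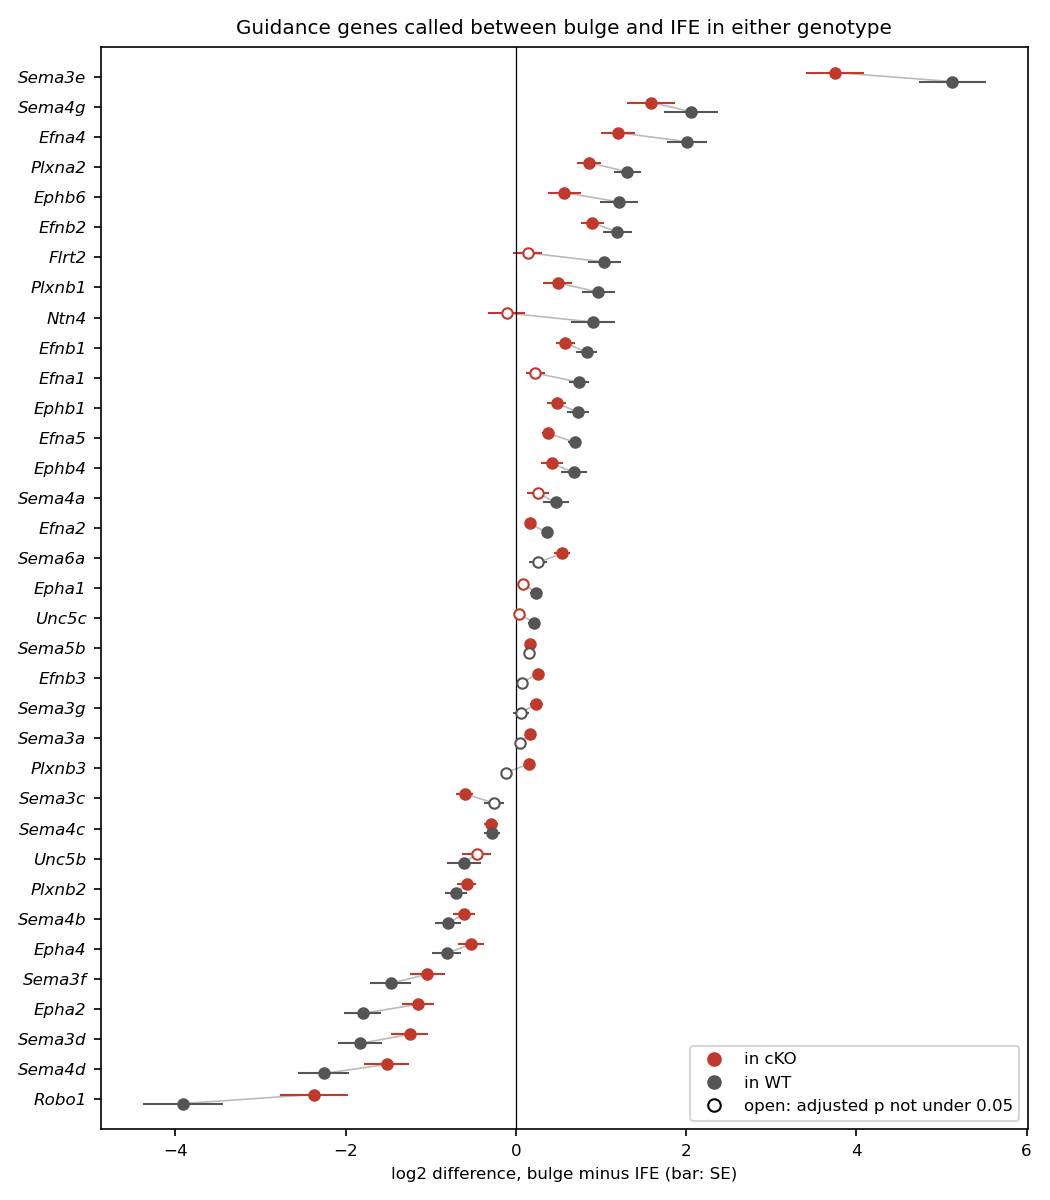
Log2 difference of bulge minus IFE (x axis, bars for the SE) for the 35 guidance genes called in either genotype, red in cKO and grey in WT, with open points where the adjusted p was not under 0.05. Sema3e stands at 3.75 in cKO and 5.13 in WT at the top, and Robo1 at -2.37 in cKO and -3.91 in WT at the bottom.

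The 4 bulge cKO arrays did not lie alike between the compartments. Each array was placed by its percent of the way from the bulge WT mean to the IFE WT mean. The median over the 28 genes called in WT was 21.2%, 47.5%, 39% and 9.8% for bulge cKO replicates 1 to 4. In 21 of these 28 genes replicates 2 and 3 both had a higher percent than replicates 1 and 4, values past the IFE WT mean included. The same arrays had the higher differentiation and lower bulge marker means, and the part of this in the values above was not tested. Flrt2, Efna5, Ephb4 and Efna2 were also called between bulge cKO and bulge WT. For replicates 1 to 4, Flrt2 lay at 124.8%, 101.2%, 111.9% and 83% of the way and Efna5 at 73.8%, 81.1%, 74.4% and 52.8%. Ephb4 lay at 73.8%, 128.8%, 83.1% and 38.0%, and Efna2 at 40.6%, 29.1%, 56.6% and 52.0%. These genes were called for their fall from bulge WT, so their places restate that fall and are no further test of it.

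**Figure D4:**
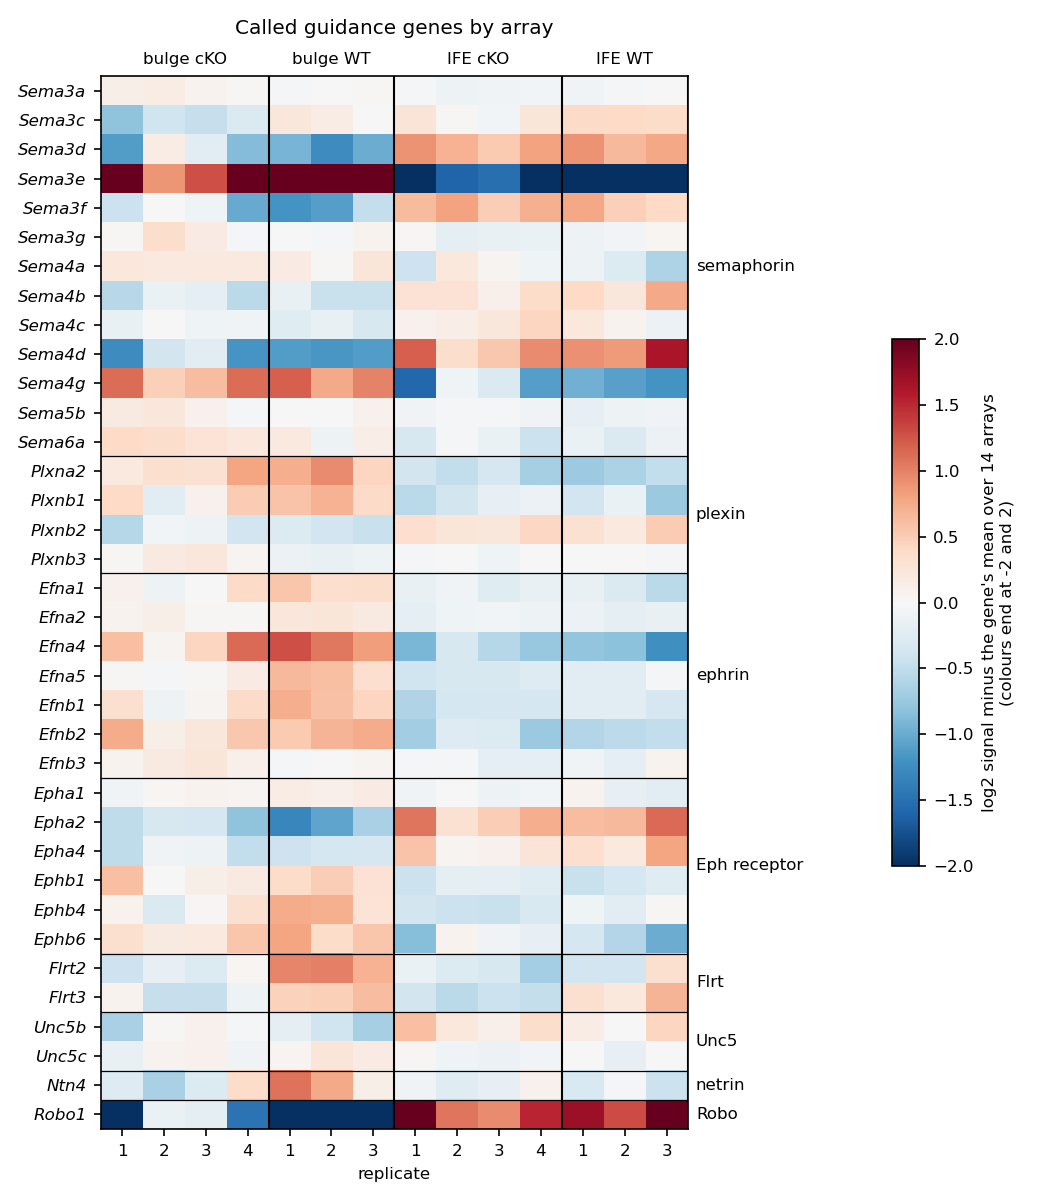
Log2 signal of the 36 called guidance genes (rows, by family) on the 14 arrays (columns, by group and replicate), each row minus its mean over the arrays, with colours ending at -2 and 2. The left block shows bulge cKO replicates 2 and 3 paler than replicates 1 and 4 in genes such as Sema3e, Sema3d, Sema4d, Efna4 and Robo1. Flrt3 is low on the IFE cKO arrays and on bulge cKO replicates 2 and 3, and Flrt2 is highest on the bulge WT arrays.

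Other genes of the guidance pathways were followed as lists that are not members of these families. Of all genes, 3.84% passed in bulge cKO against bulge WT, 0.497% in IFE cKO against IFE WT and 0.105% in the difference of effects. Between bulge and IFE, 17.6% of all genes were higher and 14.6% lower in cKO, and 18.4% higher and 16.6% lower in WT. Whether the shares of the lists differ from these was not tested. Of 26 measured co-receptors and accessory receptors, none passed limma's test between bulge cKO and bulge WT, with Cdon at -0.79 (adjusted p = 0.0542). Between bulge and IFE, 11 were higher and 7 lower in cKO, and 9 higher and 4 lower in WT, among them Boc (1.31 in cKO, 1.86 in WT), Neo1 (1.13 in cKO, 1.73 in WT) and Cdon (0.95 in cKO, 1.87 in WT). Boc and Cdon are Hedgehog co-receptors and Neo1 is a receptor of netrins and RGM proteins. Gpc1, a heparan sulfate proteoglycan that binds Slits, was lower in bulge (-0.85 in cKO, -1.15 in WT).

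Of 12 measured ligands of other families, the neurotrophin Bdnf fell in bulge cKO. It read 5.23 to 5.41 in bulge cKO and 5.72 to 5.91 in bulge WT, at a difference of -0.51 (SE 0.07, limma adjusted p = 0.00367). These signals were all within the range of genes of other organs, and those of bulge cKO were below the array medians. Between bulge and IFE, 2 were higher and 3 lower in cKO and 3 higher and 3 lower in WT, with the chemokine Cxcl12 at 1.47 in cKO and 2.25 in WT, and Vegfa at -0.72 in cKO and -1.26 in WT. Of 50 measured intracellular effectors, 2 fell in bulge cKO, Arhgef12 (-0.24, SE 0.04, adjusted p = 0.00967), whose protein binds B plexins, and the adaptor Nck2 (-0.48, SE 0.12, adjusted p = 0.0439). Arhgef12 also passed the test of the difference between compartments (-0.35, SE 0.06, adjusted p = 0.044). With a replicate block no gene passed that test, so this call was lost. Calls of single genes in these lists were not followed under the other settings. Between bulge and IFE, 19 effectors were higher and 8 lower in cKO, where 17.6% and 14.6% of all genes were. In WT 20 were higher and 11 lower, where 18.4% and 16.6% of all genes were. The kinase Fyn was at 1.22 in cKO and 1.65 in WT. Of 6 measured genes of ephrin and semaphorin cleavage and turnover, the metalloproteases Mmp2 (-1.30, SE 0.25, adjusted p = 0.0191) and Mmp14 (-0.51, SE 0.11, adjusted p = 0.0259) fell in bulge cKO. No gene of these 4 lists passed between IFE cKO and IFE WT, where 0.497% of all genes did.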

How the data were processed

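Per the labels, total RNA of epidermal cells was extracted with TRizol, amplified as cDNA with WTA2, biotinylated and hybridised on Affymetrix arrays. The authors deposited a log2 signal for each probe set, from RMA per the submitters' processing notes; the sources used here give neither its version nor any other step. All 14 columns were matched to samples by title. Of 45141 probe sets, 28898 had a single symbol, 551 several and 15692 none, through the platform annotation and Entrez identifiers, and dim probe sets were kept. Each of 17097 genes was represented by its probe set with the highest mean over the 14 arrays.

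A mean per group was fitted over all 14 arrays with limma 3.58.1 in R 4.3.3 (lmFit, contrasts.fit and eBayes). Tests were two-sided, with Benjamini-Hochberg adjustment over the 17097 genes and a threshold of 0.05. Probe sets were also tested singly, adjusted over all single-symbol probe sets, and adjusted p-values given for a further probe set of a gene are from that fit. The model was tested on simulated data. Precision is limited by how many arrays there were. The guidance genes, the lists of related genes and the markers were chosen with earlier results of these data known. The rule for named genes gave full values for genes called between cKO and WT and for the largest called differences between compartments, and let every family member be named; pathway genes were those with the smallest p. Naming Cdon, Robo1, Ntn4 and Sema3e where they did not pass was decided after their values were seen. Other settings tried were centring on array medians, cyclic loess, leaving out dim probe sets, the mean or the most variable of a gene's probe sets, an intensity trend with robust fitting, only the groups compared, an adjusted p under 0.1, a replicate block, and leaving out arrays. Figures were drawn with matplotlib 3.10.9.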

Additional observations from a re-analysis of the deposited data

Results flagged for a closer look

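For the 36 guidance genes called in any comparison, the 4 arrays of each cKO group were examined for an array far from the others, in 72 groups of values; chance flags about 1 in 20. By Dixon's test of the gap to the nearest array, 2 groups had such an array. Efnb1, an ephrin of the transmembrane class, read 8.18 on IFE cKO replicate 1, while the other IFE cKO arrays read 8.43 to 8.45 and the IFE WT arrays 8.45 to 8.58. Unc5b, a netrin receptor, read 7.58 on bulge cKO replicate 1, while the other bulge cKO arrays read 8.20 to 8.32 and the bulge WT arrays 7.57 to 8.04.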

How the results depend on the processing

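Of the genes called in bulge cKO against bulge WT (7) and in IFE cKO against IFE WT (1), 0 stayed called under every alternative, against 18 of 28 between bulge and IFE in cKO and 22 of 28 in WT. No call reversed its direction under the alternatives run. In bulge cKO against bulge WT the count of 7 became 1 with only the groups compared (0.421% of all genes), 11 at an adjusted p under 0.1 (11.8%), 0 without cKO replicates 2 and 3 of both compartments (0.468%), and 0 to 18 when leaving out each array. In IFE cKO against IFE WT the count of 1 became 0 with a replicate block (Flrt3 -0.87, adjusted p = 0.0547) and 0 without cKO replicates 2 and 3 (Flrt3 -0.83, adjusted p = 0.0727), and was 0 to 1 when leaving out each array. The count for the difference of effects was 0 throughout. Leaving out each array gave 23 to 29 genes between bulge and IFE in cKO and 23 to 29 in WT. With a replicate block, 6 genes were called in bulge cKO against bulge WT, of which 5 were among the 7 (Efna2 at 0.0946 and Plxnb3 at 0.0615 were lost); 26 between bulge and IFE in cKO, all among the 28 (Sema3g at 0.0647 and Plxnb3 at 0.0732 were lost); and 28 in WT, of which 26 were among the 28 (Unc5b at 0.0957 and Unc5c at 0.123 were lost). The sources used here do not say whether replicate numbers pair the samples. Same-numbered arrays had correlations of deviations from -0.62 to 0.25, which in groups this small cannot show whether they do. Why counts moved was not tested, beyond the fewer arrays in some fits.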
